A study of Mus musculus with 6 samples.

Results

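The protamine, transition protein and sperm tail genes Prm1, Prm2, Prm3, Tnp1, Tnp2, Odf1, Odf2 and Akap4 were followed in RNA from sorted undifferentiated spermatogonia (A undiff), where their RNA served as a measure of late germ cell transcripts in each sample. The 8 genes were picked by name from the 53657 gene names counted, and all 8 were among the 19656 that passed the expression filter. The RNA came from adult mice of 2 genotypes with 3 mice each. WT mice were Gfra1-creERT2; tdTom fl/- and carried no altered Hras allele, and MUT mice were Gfra1-creERT2; tdTom fl/- with FR-Hras G12V fl/- in addition, an allele that replaces 1 wild-type Hras copy by the G12V form upon recombination. All 6 mice received tamoxifen in 2 courses of 4 days, and 3 months later tdTomato+ cells with bright MCAM staining were sorted from each testis dissociate. MCAM is a surface protein that is brightest on A undiff. Cre was driven by the Gfra1 promoter, and the paper infers from variant reads that most of the sorted MUT cells had recombined the Hras allele. The tdTomato label is inherited by all descendants of a recombined cell. The MCAM gate, not the fluorescent label, therefore set the stage of the cells collected.

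Late in spermatogenesis the haploid spermatid exchanges its histones first for transition proteins and then for protamines, small basic proteins that pack the sperm DNA. In the same cells the tail is built around the axoneme from outer dense fibers and a fibrous sheath. The genes for these proteins are transcribed in spermatids, several divisions after the spermatogonial stage, and their mRNA is stored in a translationally silent form before use. Many of them are targets of CREM, a transcription factor of the cAMP response family.

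Prm1, Prm2, Prm3 and Tnp2 lay side by side on the minus strand of chromosome 16, between 10787936 and 10805839 in GRCm38, a stretch of 17.9 kb. Tnp1 was on the minus strand of chromosome 1 (73015074 to 73015909), Odf1 on the plus strand of chromosome 15 (38219203 to 38226735), Odf2 on the plus strand of chromosome 2 (29889221 to 29931746) and Akap4 on the plus strand of chromosome X (7067519 to 7078609). The DNA upstream of the RefSeq start sites of the members was searched for shared motifs. A link of motifs to the levels in these samples was not tested. RefSeq windows of 300 bases, from 250 before to 50 after a start, were at hand for 7 of the 8 members. These members had 11 windows in all, and a gene was counted if any of its windows held the motif. The full cAMP response element TGACGTCA was found for 0 of these 7 and for 2.03% of the 27025 mouse genes with windows. The looser form TGANNTCA, which reads the same on both strands and includes the full element, was present for 4 of 7 members (Prm1, Prm3, Tnp1 and Akap4) and for 15.9% of all these genes. TATAAA, searched on both strands, was found for Prm2 alone (15.7% of all these genes), and TATAAG for Prm1 alone (8.58%). The upstream sequences of the 4 members with a TGANNTCA match and of Tnp2 and Prm2, which had none, follow from 5′ to 3′ on the gene's strand in GRCm38.p6, with the match in capitals. Bases annotated as exon were left out, except for Prm1, where the match overlapped an exon of the longer transcript and 30 bases around it are shown.
Prm1 (chr16:10796869-10796898, minus strand): ctggtcctcttTGACTTCAtaattcctagg
Prm3 (chr16:10790915-10791064, minus strand): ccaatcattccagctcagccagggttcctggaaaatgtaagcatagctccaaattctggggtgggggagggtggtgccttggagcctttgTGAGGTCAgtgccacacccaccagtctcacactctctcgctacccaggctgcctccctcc
Tnp1 (chr1:73015910-73016049, minus strand): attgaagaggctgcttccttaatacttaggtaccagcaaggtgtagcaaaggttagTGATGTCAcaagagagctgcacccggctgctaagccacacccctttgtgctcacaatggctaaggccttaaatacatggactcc
Akap4 (chrX:7067365-7067514, plus strand): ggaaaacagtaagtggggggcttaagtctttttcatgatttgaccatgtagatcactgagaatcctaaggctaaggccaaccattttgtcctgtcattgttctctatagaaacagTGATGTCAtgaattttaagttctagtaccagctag
Tnp2 (chr16:10788661-10788805, minus strand): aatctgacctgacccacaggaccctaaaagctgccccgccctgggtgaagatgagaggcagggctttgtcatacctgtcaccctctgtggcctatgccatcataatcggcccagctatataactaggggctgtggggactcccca
Prm2 (chr16:10792106-10792255, minus strand): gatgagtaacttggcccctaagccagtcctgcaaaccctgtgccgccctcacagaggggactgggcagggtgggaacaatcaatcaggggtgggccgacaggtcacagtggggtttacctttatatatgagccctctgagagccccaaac

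The first base of the match shown lay 64 bases before the start of Prm1, 60 before that of Prm3, 94 before that of Tnp1 and 35 before that of Akap4. Akap4 had a second match, TGATATCA, 234 bases before another of its starts, which is not printed here. The Prm1 and Prm2 pieces are within the annotated gene span, since each gene has a longer transcript that begins farther upstream, while the other 4 lie outside the span of their gene. A match describes the letters only.

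The libraries had between 22729292 and 23550433 counts, so that 3 counts amounted to 0.127 to 0.131 CPM (counts scaled to a common library size by the TMM method). Spermatogonial genes were abundant in every sample, and the summed level of 15 such markers was 3931 to 4521 CPM in WT and 4110 to 4605 CPM in MUT. Dazl, a germ cell RNA-binding protein, was at 907 ± 18.4 CPM in WT and 887 ± 64.1 CPM in MUT (SD, n = 3 each). Other markers were less even. Zbtb16 was at 469, 411 and 303 CPM in WT 1, 2 and 3 and at 460, 388 and 413 CPM in MUT 1, 2 and 3. Mcam, the gene of the sorting marker, was at 668, 707 and 593 CPM in WT and at 662, 567 and 559 CPM in MUT. Of the 15 markers, 8 had a negative and 7 a positive log2 fold change of MUT against WT, from -0.28 to 0.36.

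All 8 members were detected in all 6 sorted samples, far above this floor, and their levels followed 1 order closely. For each member WT 3 was the highest sample, WT 1 was above WT 2, and MUT 1 and MUT 2 were the lowest samples. WT 3 was also the highest sample for 26.7% of all genes tested. MUT 3 was above WT 2 for each member, so the WT and MUT samples overlapped. Group means were lower in MUT by 0.27 to 0.62 on the log2 scale, and none of the 8 differences passed the test.

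Prm2, which encodes the larger of the main protamines as a precursor, had the highest counts of the 8 members in 5 of the 6 samples, with Odf2 above it in MUT 2 (6817 counts). Prm2 had 11940, 8396 and 15254 counts in WT 1, 2 and 3 and 6029, 6523 and 11496 counts in MUT 1, 2 and 3. These values placed it 69th of all genes by counts in WT 3 and 668th in MUT 1. Scaled by library, Prm2 was at 522, 359 and 645 CPM in WT (mean 508 ± 143, SD, n = 3) and at 264, 283 and 491 CPM in MUT (346 ± 126). WT 3 stood highest and MUT 3 lay between WT 1 and WT 2, so the range of 1.80-fold among WT mice and of 1.86-fold among MUT mice was wider than the gap between the group means.

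Prm1, the protamine that needs no processing, was at 240.0, 183 and 308 CPM in WT (244 ± 62.5) and at 114, 136 and 227 CPM in MUT (159 ± 59.8). It varied 2.71-fold from MUT 1 to WT 3. Prm3, whose product is an acidic protein despite its name and place in the cluster, was far less abundant, with 11.2, 8.42 and 16.5 CPM in WT and 5.59, 7.11 and 14.1 CPM in MUT. It had the widest range of the 8 members, 2.95-fold over the 6 samples. On the scale of CPM per kilobase of exon, the mean levels of Prm2 and Prm1 were 569 and 426 in WT and 387 and 278 in MUT, against 29.4 and 21.8 for Prm3.

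The transition protein genes lay close to the protamines in level. Tnp1 was at 163, 128 and 205 CPM in WT (165.4 ± 38.2) and at 89.1, 80.8 and 159 CPM in MUT (109.7 ± 43.1). Tnp2 was at 224, 177 and 288 CPM in WT (229.6 ± 55.4) and at 122, 114 and 238 CPM in MUT (158 ± 69.8). Both were lowest in MUT 2, whereas the other 6 members were lowest in MUT 1. Per kilobase of exon their mean levels were 379 (Tnp1) and 414 (Tnp2) CPM in WT and 251 and 285 CPM in MUT. Tnp1 shares 40 exon bases with RP23-445K8.1 on the opposite strand, and fragments on both genes were not counted for either. Counts assigned to RP23-445K8.1 were 438, 353 and 685 in WT and 243, 251 and 515 in MUT, with WT 3 highest and MUT 1 and MUT 2 lowest as for Tnp1. Since counting ignored strand, these counts cannot be credited to RNA of the antisense strand.

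The tail genes had lower levels per kilobase. Odf1, a main protein of the outer dense fibers, was at 107, 91.7 and 146 CPM in WT (115 ± 28.3) and at 57.1, 64.1 and 123 CPM in MUT (81.2 ± 35.9). Akap4, the major anchoring protein of the fibrous sheath, was at 169, 119.6 and 177 CPM in WT (155 ± 30.8) and at 81.6, 89.3 and 158 CPM in MUT (109.7 ± 42.2). MUT 3 was above WT 1 for Odf1 and below it for Akap4, and WT 2 was below MUT 3 for both. Mean levels per kilobase were 104 CPM in WT and 73.5 in MUT for Odf1 and 51.2 and 36.2 for Akap4.

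**Figure D1:**
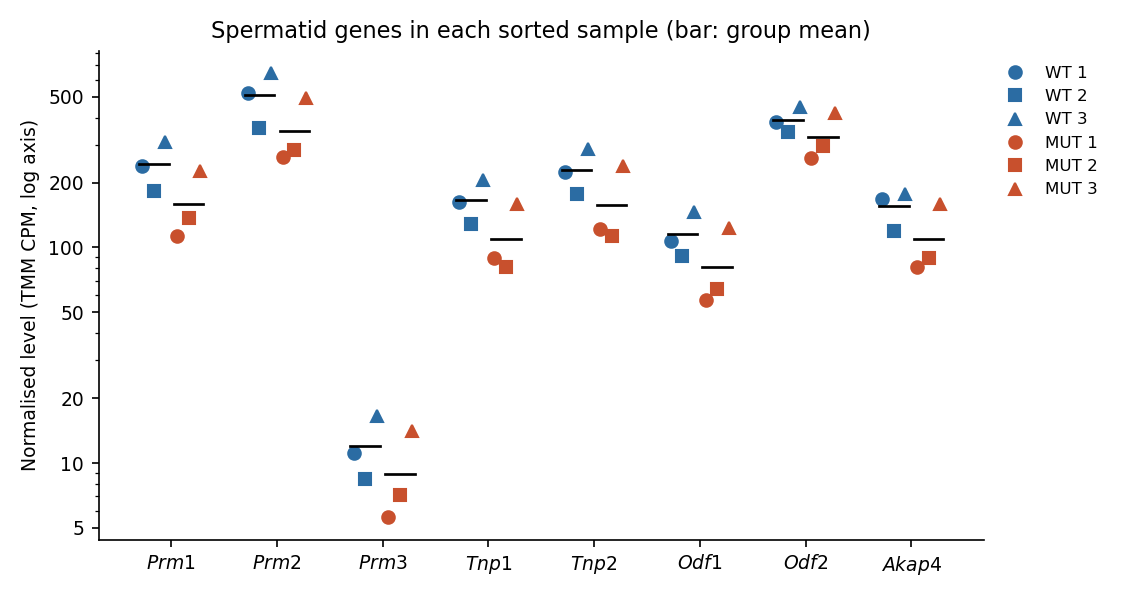
Normalised level (CPM after TMM scaling, log axis) of the 8 members in each sorted sample, with blue symbols for WT mice, orange symbols for MUT mice, a symbol shape for each replicate number and a black bar for the group mean. WT 3 is the highest sample of every member, MUT 1 and MUT 2 are the lowest, and MUT 3 lies above WT 2 and below WT 3.

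Whether the genotypes differed was read from the edgeR quasi-likelihood fit over all genes, with Benjamini-Hochberg adjustment. At an FDR of 0.1, 0 of the 8 members were called, against 0.0102% of all genes tested (2 genes). The adjusted p was 0.998 for each member, and DESeq2 also called 0 of the 8 (0.0241% of its genes were called). In the main edgeR fit Prm1 alone had an unadjusted p under 0.05, a level that 2.78% of all genes reached (1.44% with MUT lower). This depended on the setting. In DESeq2 the lowest unadjusted p of a member was 0.096, for Prm1. In edgeR without the expression filter all members but Prm3 and Odf2 were under 0.05, as were 1083 of 37285 genes. None of the 8 had every MUT sample below every WT sample, a separation seen for 3.00% of all genes (4.69% had the opposite one). All 8 fold changes were negative, as were 48.2% of those of all genes. The members share the same libraries, so their common sign is not a count of independent results.

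The fitted log2 fold change of MUT against WT was -0.62 for Prm1 (SE 0.263, 95% confidence interval -1.22 to -0.014), -0.56 for Prm2 (SE 0.270) and -0.43 for Prm3 (SE 0.358). It was -0.59 for Tnp1 (SE 0.260), -0.54 for Tnp2 (SE 0.285), -0.50 for Odf1 (SE 0.284) and -0.50 for Akap4 (SE 0.249). Odf2 had the smallest difference, -0.27 (SE 0.175, 95% confidence interval -0.67 to 0.13). Apart from Prm1, each interval included 0 in this main fit. In this fit without pairing, a reduction of 2-fold was within the interval of all members but Odf2.

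Mice were also paired by replicate number, although the sources used here do not say which mice were litter pairs. The pairing was adopted from correlations in these same counts, where WT 2 was closer to MUT 1 (r = 0.33) than to MUT 2 (r = 0.16). Taken this way, MUT was below WT in 3 of 3 pairs for each member. The share of all genes with this order was not counted, so the order cannot be weighed and no conclusion is drawn from it. In pair 1 the WT level was 2.11-fold the MUT level for Prm1, 1.98-fold for Prm2, 2.07-fold for Akap4 and 1.47-fold for Odf2. In pair 2 these ratios were 1.34, 1.27, 1.34 and 1.16, and in pair 3 they were 1.36, 1.31, 1.12 and 1.07. Tnp1 differed by 1.83-, 1.59- and 1.29-fold in the same pairs. With the replicate number as a block, Tnp1 passed the threshold (log2 fold change -0.63, adjusted p = 0.0794 in edgeR) and the other 7 members did not (adjusted p 0.165 to 0.532), where 0.0661% of all genes were called, or 13 genes, and 0.0611% were called with MUT lower, or 12 genes. Before any adjustment over genes, the 95% intervals of all 8 members excluded 0 in this paired fit, from -0.91 to -0.38 for Prm1 to -0.51 to -0.07 for Odf2, and none reached a reduction of 2-fold. In the same edgeR fit 1297 of 19656 genes had an unadjusted p under 0.05, 926 of them with MUT lower. The 8 members share the same libraries and are not independent results. Since the pairing was chosen from these same counts, the Tnp1 call and the paired intervals are descriptions and do not establish a difference between genotypes.

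**Figure D2:**
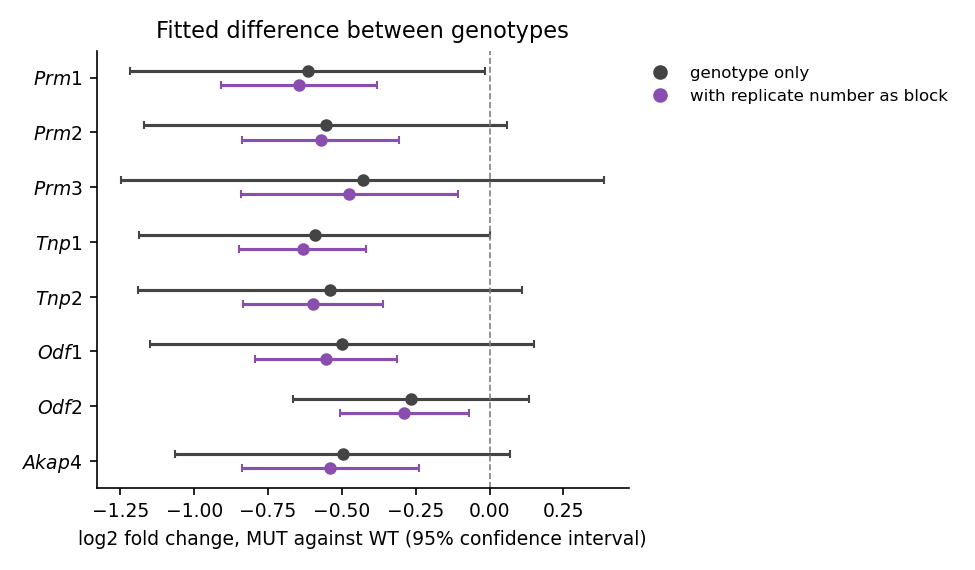
Fitted log2 fold change of MUT against WT for each member from edgeR, with bars for the 95% confidence interval, grey for the fit on genotype alone and purple for the fit with the replicate number as a block. All 8 estimates are negative in both fits, and the block narrows the intervals (for Tnp1 from -1.19 to 0.0011 without it to -0.85 to -0.42 with it).

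For each of the 8 members the estimate moved farthest when MUT 3 was left out. Without MUT 3 the log2 fold change of Prm1 was -0.96, of Tnp2 -0.96, of Odf1 -0.92 and of Odf2 -0.49, with adjusted p of 0.189 to 0.337 over the 8 members. Without WT 3 it was -0.41 for Prm1, -0.35 for Prm2 and -0.13 for Prm3. No member changed sign and none was called when any of the 6 mice was left out.

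Summed over the 7 members other than Odf2, spermatid RNA came to 1435, 1067 and 1784 CPM in WT 1, 2 and 3 (mean 1429 ± 359) and to 732, 774 and 1410.3 CPM in MUT 1, 2 and 3 (972 ± 380.1). This was 0.142%, 0.106% and 0.186% of the WT libraries and 0.0715%, 0.0766% and 0.142% of the MUT libraries. MUT 3 thus held the same share as WT 1, and the other MUT mice held less than any WT mouse. The ratio of the means, MUT to WT, was 0.680, or -0.56 on the log2 scale, against a within-group SD of 0.455. In bulk RNA, fewer spermatids among the sorted cells and less of this RNA per cell cannot be told apart.

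The members kept nearly constant proportions to each other while their sum varied 2.44-fold. For every 100 counts of Prm2 a sample held 43.1 to 51.0 counts of Prm1, a range of 1.18-fold where the level of Prm1 itself ranged 2.71-fold. Tnp1 ranged from 28.5 to 35.8 (1.25-fold), Tnp2 from 40.2 to 49.4 (1.23-fold), Odf1 from 20.4 to 25.6 (1.25-fold) and Akap4 from 27.4 to 33.3 (1.22-fold). The mean proportion of Prm1 was 48.2 ± 2.53 in WT and 45.8 ± 2.59 in MUT, and that of Odf1 was 22.9 ± 2.57 and 23.1 ± 1.67, so that these group means lay within 1 SD of each other. Prm3, with the fewest counts, spread from 2.12 to 2.87. Socs1, a signalling inhibitor gene 2400 bases from the chromosome 16 cluster, named after its values were seen, had 612, 556 and 530 counts in WT and 548, 599 and 427 in MUT and so did not share the order of its neighbours.

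**Figure D3:**
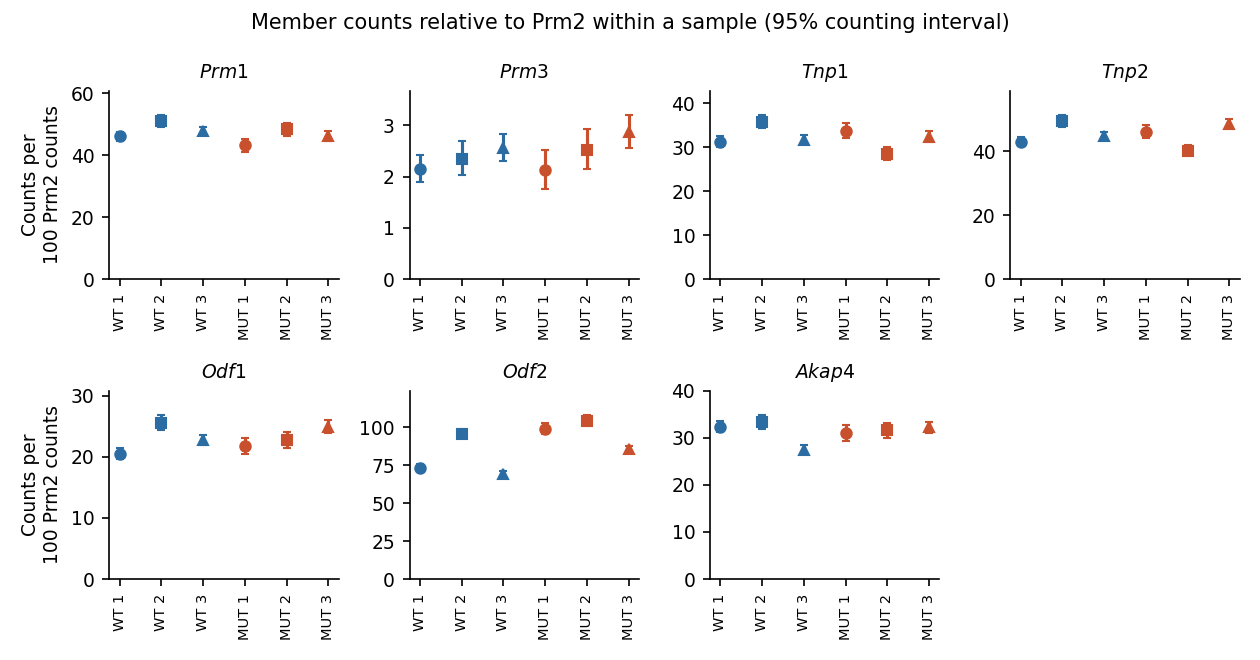
Counts of each member per 100 counts of Prm2 in the same sample (vertical axes start at 0), with blue for WT, orange for MUT and bars for the 95% interval from counting error alone. Prm1, Tnp1, Tnp2, Odf1 and Akap4 stay within a 1.25-fold range, while Odf2 runs from 69.5 in WT 3 to 104.5 in MUT 2.

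Odf2 departed from the other 7. Its product is a component of outer dense fibers in the sperm tail and also of the appendages of the mother centriole in other cells, and the annotation listed 25 transcripts for it, 14 of them protein-coding. Odf2 was at 384, 344 and 448 CPM in WT (392 ± 52.5) and at 261, 296 and 420.5 CPM in MUT (326 ± 83.9). The order of samples was that of Prm3 and Odf1, with MUT 3 second to WT 3 and MUT 1 lowest, yet the range over the 6 samples was 1.72-fold, narrower than the 2.17- to 2.95-fold of the other 7. A least-squares line of Odf2 on the 7-member sum had a slope of 169.6 CPM per 1000 CPM and met the axis at 155 CPM, with no sample more than 26.1 CPM from it (n = 6, a description of points that share their scaling). That intercept equals 59.5% of Odf2 in its lowest sample and 34.7% in its highest. Of 14 other centriole appendage genes, none was called, their median log2 fold change was 0.01, and their summed level was lowest in WT 3 (1235 CPM) and 1342 to 1389 CPM in the other samples.

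**Figure D4:**
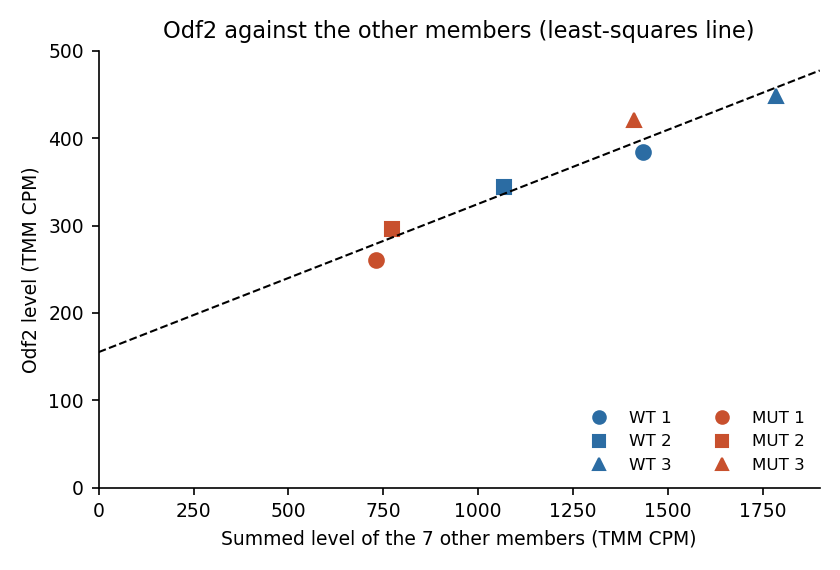
Odf2 level against the summed level of the other 7 members (both in CPM), 1 point per sample in blue for WT and orange for MUT, with the least-squares line dashed. The points run along a line that meets the vertical axis at 155 CPM, so Odf2 does not vary in proportion to the sum.

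Other genes of the spermatid were examined to see whether they shared the pattern of the members. Of 12 chromatin and kinase genes of the spermatid, 0 were called and 12 had a negative log2 fold change (median -0.46, against 0.0066 over all genes). MUT 1 and MUT 2 were the lowest samples for 12 of these 12, as for 8 of 8 members and for 12.0% of all genes. H1fnt, a linker histone of spermatids, was at 42.7 ± 8.83 CPM in WT and 29.8 ± 12.1 CPM in MUT, and Tssk2, a testis-specific kinase, at 33.0 ± 8.18 and 24.0 ± 10.5. Of 21 further tail and mitochondrial sheath genes, 0 were called, 21 had a negative log2 fold change (median -0.36) and 16 had MUT 1 and MUT 2 lowest. Smcp, of the mitochondrial capsule, was at 156 ± 40.7 CPM in WT and 110.1 ± 58.6 CPM in MUT, and Gapdhs, the glycolytic enzyme of the fibrous sheath, at 138 ± 36.2 and 96.0 ± 38.6.

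Genes of the acrosome, the secretory vesicle that forms in early spermatids, differed from the members in the order of the WT mice, and the tail list was mixed. Of 12 such genes 0 were called and the median log2 fold change was -0.17. WT 1 was above WT 2 for 8 of 8 members, 8 of 12 chromatin and kinase genes, 10 of 21 other tail genes and 0 of 12 acrosome genes, where 49.0% of all genes had this order. MUT 3 was the highest sample for 0 of 8 members, 3 of 12 chromatin and kinase genes, 9 of 21 tail genes and 8 of 12 acrosome genes. Over all 19656 genes tested, MUT 3 was highest for 2865. Acrbp, which binds proacrosin, was at 14.7, 20.1 and 24.3 CPM in WT and at 13.02, 14.1 and 23.1 CPM in MUT. The acrosome sum came to 5.47% of the 7-member sum in WT 1 and to between 8.25% and 10.7% in the other 5 samples. WT 1 therefore held less acrosome RNA relative to its 7-member sum than any other sample, the other WT mice included.

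Genes of the meiotic stage were highest in WT 3 as well, for 14 of 20 against 26.7% of all genes. Of the 20, 4 had MUT 1 and MUT 2 lowest. None of the 20 was called, and their median log2 fold change was -0.01. Their sum was 1583, 1794 and 2193 CPM in WT and 1743, 1862 and 1983 CPM in MUT, lowest in WT 1, which was second to WT 3 in the 7-member sum. Pgk2, a glycolytic enzyme gene of late meiotic and haploid cells named after its values were seen, was the 1 meiotic gene with r above 0.9 to the members, and it had 1253, 1078 and 1861 counts in WT and 686, 712 and 1566 in MUT. Sycp1, of the synaptonemal complex, was at 223 ± 29.4 CPM in WT and 226 ± 8.14 CPM in MUT. Of 17 regulators of protamine and transition protein expression 0 were called, with 8 negative and 9 positive fold changes and a median of 0.00087. MUT 1 and MUT 2 were the lowest samples for 5 of the 17, against 12.0% of all genes. Of the 17, 2 had r above 0.9 to the members, as did 717 of the 16660 genes searched. Crem, named after its values were seen, had 410, 446 and 590 counts in WT and 318, 433 and 557 in MUT (log2 fold change -0.13). Taf7l, a testis form of a general transcription factor subunit, was at 506 ± 16.7 CPM in WT and 530.0 ± 16.6 CPM in MUT. Srpk1, a kinase that can phosphorylate protamine, was at 244 ± 3.99 and 254 ± 1.84 CPM.

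**Figure D5:**
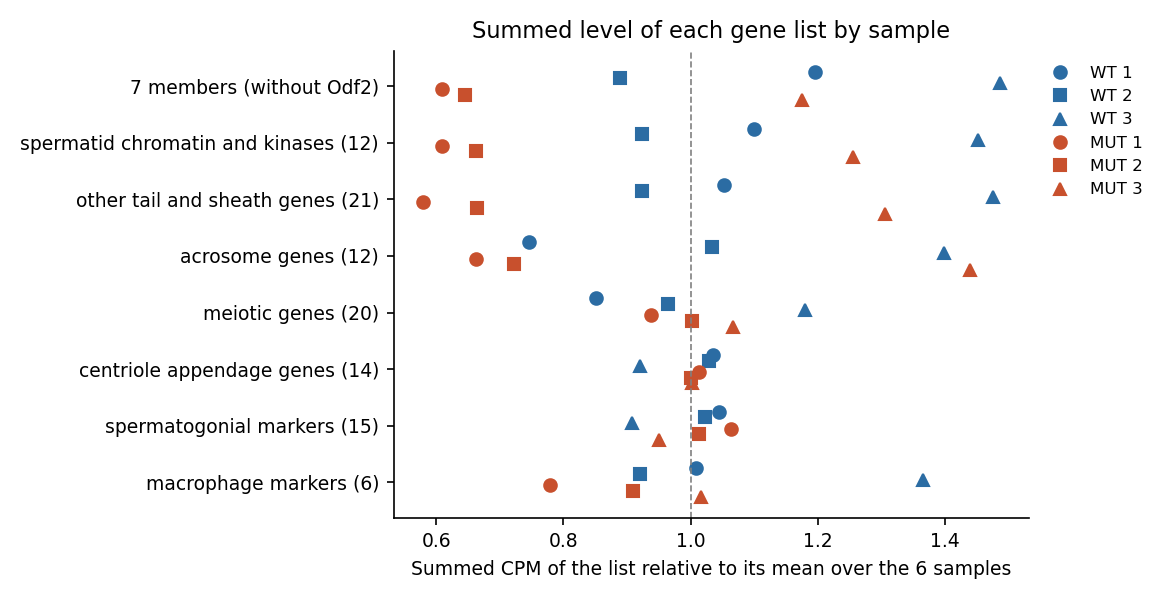
Summed CPM of each gene list in a sample, divided by its mean over the 6 samples (horizontal axis, 1 = mean), with blue for WT, orange for MUT and a symbol for each replicate number. The first 3 lists spread from about 0.58 to 1.49 in a similar order of samples, WT 1 drops to 0.746 for the acrosome genes, and the spermatogonial and centriole lists stay within 0.908 and 1.06.

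Across the 6 samples, the genes with mean CPM of at least 1 whose log2 level was most like the summed level of Prm1, Prm2, Tnp1 and Tnp2 were RP23-335A19.2 (Pearson r = 0.998), Cabs1 (0.998), Gapdhs (0.997), Ptpn18 (0.997), Znrf4 (0.996), Actl9 (0.996), RP23-231H21.2 (0.995), Iqcf4 (0.995), Ccdc91 (0.995) and RP23-422L16.21 (0.995). The search covered 16660 genes in the same 6 libraries, and 39 of them had r above 0.99 and 717 above 0.9. Cabs1 had 1068, 789 and 1352 counts in WT and 518, 539 and 1089 in MUT. Ccdc91 also had WT 3 highest and MUT 1 and MUT 2 lowest, over a narrower range of 1.305-fold. The median r was 0.965 for the chromatin and kinase genes, 0.883 for the tail genes, 0.719 for the acrosome genes, 0.210 for the meiotic genes and -0.27 for the spermatogonial markers.

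Among markers of somatic testis cells, those of macrophages moved with the members. The 6 macrophage markers, none of them at 0, summed to 668, 609.7 and 904 CPM in WT and to 516, 601 and 673 CPM in MUT. All 6 were highest in WT 3, against 26.7% of all genes, and 4 had MUT 1 and MUT 2 lowest. All 6 had a negative log2 fold change (median -0.28), as had 48.2% of all genes, and 0 were called. Their sum had the same order of samples as the sum of all 8 members, and their median r to the members was 0.889. Csf1r, a macrophage growth factor receptor, was at 215 ± 29.8 CPM in WT and 178 ± 27.5 CPM in MUT. The 6 Leydig cell markers summed to 13.2 to 21.1 CPM in WT and to 12.9, 13.5 and 67.3 CPM in MUT 1, 2 and 3, so MUT 3 stood apart, with 505 counts of the steroidogenic enzyme gene Cyp17a1 against 8 to 91 in the other samples. Sertoli markers summed to 31.3 to 48.2 CPM in WT and 41.0 to 51.7 in MUT, myoid markers to 7.91 to 9.68 and 9.15 to 12.8, and endothelial markers to 44.1 to 58.3 and 43.8 to 53.2. Hemoglobin genes summed to 0.0855 to 0.743 CPM in WT and to 0.131, 0.867 and 1.88 CPM in MUT 1, 2 and 3, with the most counts in MUT 3 (29 of Hbb-bs). The part that somatic cells had in the differences of the members was not tested.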

How the data were processed

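Testes of single mice were dissociated and sorted, and stranded mRNA libraries were sequenced as pairs of reads (3 WT, 3 MUT). The deposited files give, for each gene name, a raw count of read pairs, made per the file headers with featureCounts 1.6.2 on a GENCODE annotation of GRCm38.p6 with tdTomato added. Counting ignored strand and left out multi-mapping fragments and fragments shared by several genes, so overlapping genes are undercounted. The submitters' processing notes also name FastQC and STAR, whose versions are not given in the sources used here. The deposited values had no normalization, filter or pooling.

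Groups and replicate numbers came from the sample titles. In R 4.3.3, edgeR 4.0.16 scaled counts by TMM, filtered genes with filterByExpr and tested MUT against WT by quasi-likelihood with genotype as the only term (Benjamini-Hochberg adjustment over 19656 genes, FDR 0.1). DESeq2 1.42.0 was an alternative, with the other settings given in the closing section. CPM are TMM-scaled, and log2 CPM for the correlations used a prior count of 2. The fit was tested on simulated counts. Counting intervals and floors cover counting error only, since PCR duplicates could not be separated. Chi-square per degree of freedom between replicates of a group was 4.26 to 24.5, so no replicates of 1 group looked like the same library; pairs across groups were not compared this way.

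Deviations from the group means of samples with the same replicate number correlated at r = 0.30, 0.16 and 0.40 over 10583 genes above 10 CPM, so the numbers were taken to pair the mice, although WT 2 and MUT 1, with different numbers, correlated at 0.33. The controls were littermates, and which mice were litter pairs is not given in the sources used here. The members, the gene lists and the rule for named genes were chosen with earlier results of these data known, so that values for them are descriptions. Named were all 8 members, up to 4 genes of each other list by mean CPM plus any that passed the FDR, and the 10 genes most like the 4 nuclear protein genes. Promoter windows are those of RefSeq on GRCm38.p6.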

Additional observations from a re-analysis of the deposited data

How the results depend on the processing

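No member changed sign under any alternative, and the fit with the replicate block changed the call of Tnp1 alone (log2 fold change -0.63 with the block). That block was adopted from correlations in these same counts without a known litter pairing, so the change of call is a description of the fit. The summed level of 7 members, -0.56 on the log2 scale, ran from -0.89 (group medians) to -0.49 (all 8 members) under other settings and from -0.92 (without MUT replicate 3) to -0.36 (without WT replicate 3) when 1 mouse was left out. Over all genes, 2 were called in edgeR, 9 in DESeq2, 5 with no filter, 13 with the replicate block, 1 at an FDR of 0.05 and 0 with at least 10 counts in every sample (479 at an unadjusted p under 0.05), where fewer genes were tested. Leaving out 1 mouse gave 0 to 6 calls, with 0 without MUT replicate 2 (292 at an unadjusted p under 0.05) and 6 without MUT replicate 3. The causes were not tested. All members but Prm3 had over 1000 counts in each sample, and Prm3 had 128 to 391, so relative counting error was largest for Prm3.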
